A study of Agaricus bisporus with 12 samples.

Results

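The cell cycle, DNA replication and histone genes of the button mushroom Agaricus bisporus were followed in compost mycelium through a commercial crop. A gene was taken as a member when the text of its first KEGG Orthology assignment named the cell division machinery, replication, a DNA polymerase, a cyclin, a histone, condensin, cohesin, the kinetochore, ribonucleoside-diphosphate reductase or the anaphase-promoting complex, leaving out ubiquitin and F-box proteins that matched by name. This gave 148 of the 9502 genes with a read. Of these, 117 rested on a strong sequence match and 31 on a weak match (E-value above 1e-20), for which the name is an annotation only. RNA-seq was done on 2 libraries from each of 6 stages of strain A15, a commercial heterokaryon, whose mycelium carries the nuclei of both parents. The stages were spawning (compost colonised for 16 days at 25 °C), pinning (when mushroom primordia form), first flush (the first harvest of mushrooms) and the time after it, then second flush and the time after that one. All samples were mycelium-colonised compost and not mushrooms, all had the same strain and substrate, and no treatment was applied. No label says that both libraries of a stage were taken from separate compost lots, and p-values therefore reflect the spread between libraries alone, which may be technical.

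A eukaryotic cell copies its genome in S phase and shares it out in mitosis under the control of cyclin-dependent kinases. Origin recognition and minichromosome maintenance (MCM) proteins license origins, a helicase and polymerases with the PCNA clamp then copy the DNA, ribonucleotide reductase supplies the deoxynucleotides, and new histones package the product. Condensin, cohesin and kinetochores then prepare chromosomes for the spindle, and the anaphase-promoting complex triggers their separation. A mycelium extends at hyphal tips, where new cytoplasm has to be filled with nuclei, and in yeast many of these genes are transcribed in a particular part of the cycle.

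Library totals were 7.27 to 9.34 (in units of 1e6 uniquely placed reads), and 9189 to 9270 genes had a read in a library. Of the members, 145 passed the filter on low counts. The others were a DNA polymerase zeta subunit (gene 116764), a weak polymerase eta match (gene 118411) and a weak histone H3 match (gene 206393), with at most 5, 7 and 2 reads in a library. Levels are given as RPKM (reads scaled to gene length in kilobases and to library size), and fold changes and tests come from edgeR's quasi-likelihood fit to the counts of all 12 libraries, scaled by TMM. Genes with an adjusted p under 0.05 (Benjamini-Hochberg, 8814 tested genes) were called, and errors of log2 changes are standard errors. TMM scaling lowered the median change of all genes against unscaled RPKM by 0.11 at pinning and by 0.20 at first flush (log2), so the changes given are smaller on the way up than the RPKM values show. The library codes of the first flush carry another letter than those of the other stages, and no label says whether they were made or sequenced apart, so a batch, if there was one, could not be told apart from first flush. RNA from bulk compost does not separate fewer cells of a type from less RNA per cell. Reads counted were those placed uniquely and strand use is not stated, so levels of near-identical copies and of overlapping neighbours are uncertain.

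The members were low to moderate in level. The median of their mean levels, with the 3 untested members included, was 22.0 RPKM against 27.3 RPKM over all tested genes. Mean levels lay above 100 RPKM for 19 and below 5 RPKM for 10 of the 148 members. Together they took 0.824% ± 0.022 (SD, n = 2) of reads at spawning and 1.33% ± 0.028 at first flush, then 1.30% in the stage that followed, 1.07% at second flush and 1.19% at the end. By RPKM, 79 of 145 members (54.5%) had their highest stage mean at first flush against 30.7% of all tested genes, and 92 (63.4%) had their lowest at spawning against 44.0%. After TMM scaling these shares were 49.0% against 24.7% and 51.0% against 33.5%. The median ratio of highest to lowest stage was 2.23 for members and 2.45 for all tested genes. First flush was thus the most frequent peak of the members and spawning their most frequent low, on either scale.

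**Figure D1:**
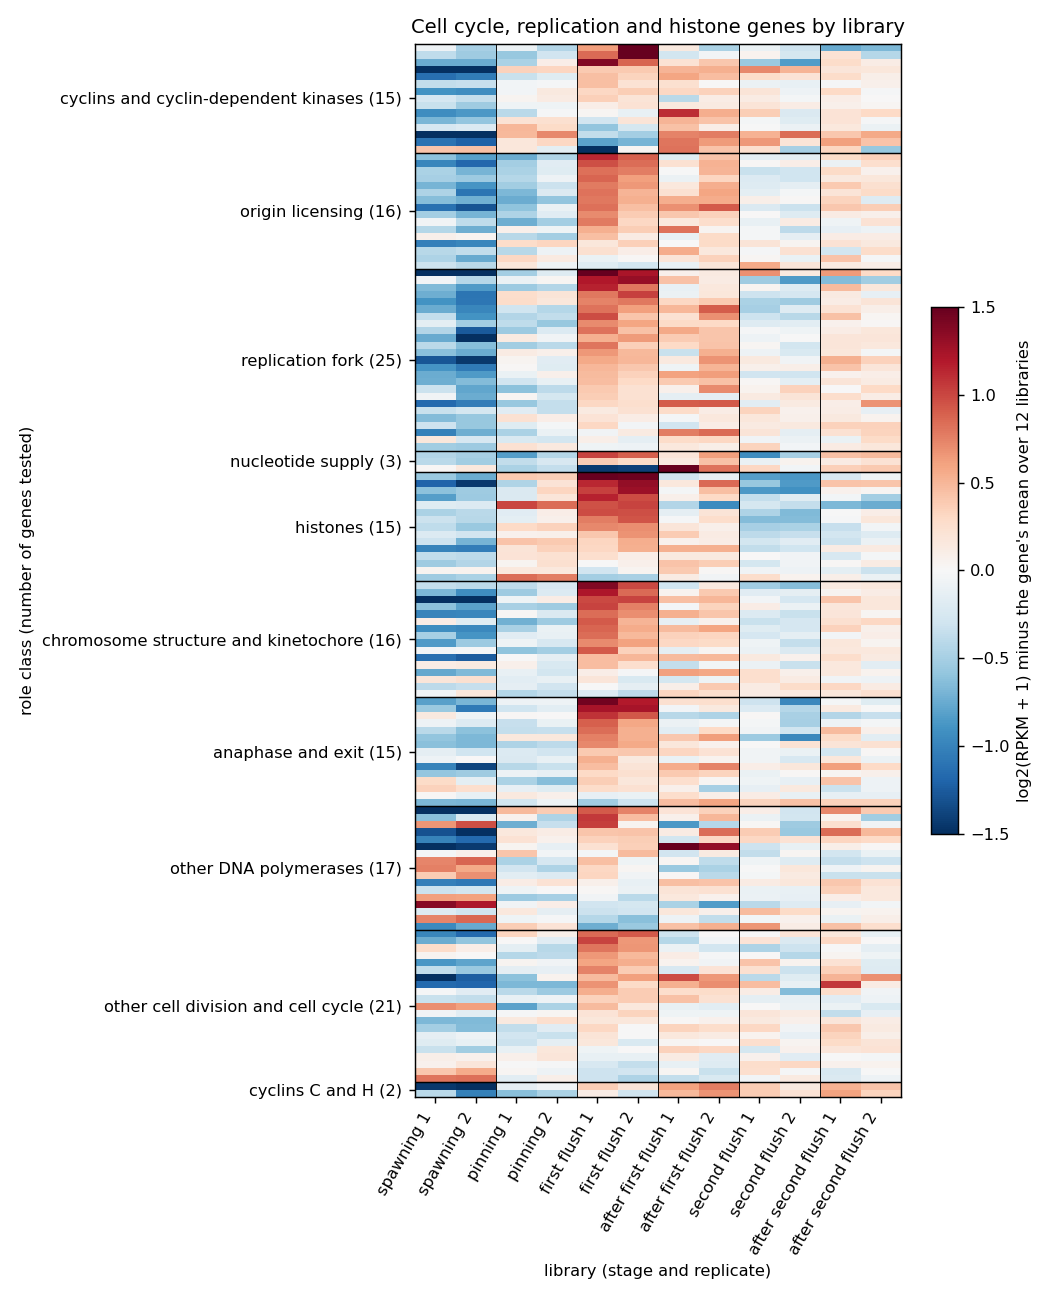
Heatmap of 145 members (stacked by role) over the 12 libraries (columns), showing log2(RPKM + 1) minus the gene's mean over libraries, with colours limited to -1.5 to 1.5. By stage mean, 92 of 145 members are lowest at spawning and 79 are highest at first flush.

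Over the 6 stages, 125 of 145 members changed (86.2%), against 85.6% of all tested genes, a share near the background. From spawning to pinning 57 members rose and 22 fell, where 29.3% and 25.2% of all tested genes rose and fell, with a median member change of 0.25 (log2) against 0.05 for all genes. From pinning to first flush 63 rose and 21 fell (background 25.1% and 23.6%, medians 0.33 and 0.03). The falls there numbered 9 on unscaled RPKM, 11 without pinning replicate 1 and 12 without first flush replicate 1. After first flush 17 rose and 50 fell (background 26.1% and 26.0%, medians -0.23 and -0.01). From there to second flush 5 rose and 28 fell (background 11.3% and 11.0%, medians -0.18 and -0.01). From second flush to after second flush 10 rose and 2 fell (background 5.29% and 2.89%, medians 0.14 and -0.01). These last 2 steps hung on single libraries. Without second flush replicate 2 the counts were 1 rise and 12 falls at the former and 2 rises at the latter, which also had 2 rises without second flush replicate 1 or after second flush replicate 2, and 4 without after second flush replicate 1. Consecutive comparisons share the libraries of the stage between them, so a fall after a rise is not separate evidence. A call described as lost on the RPKM scale was not made by limma on log2 RPKM.

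The 2 ends and the 2 flushes were also compared directly. Second flush was below first flush for 66 members and above for 16 (background 22.7% and 23.0%), with a median of -0.39 against 0.00 over all genes. After second flush against spawning, 70 rose and 22 fell (background 31.9% and 27.6%), with a median of 0.39 against 0.06. On unscaled RPKM the medians of the members kept their sign in each of the 7 comparisons, and the split moved further towards rises at first flush, where 89.8% of the called members were higher against 75.0% with TMM. Over all called genes the shares there moved alike, to 68.2% from 51.6%. At pinning the members' shares were 81.9% on RPKM and 72.2% with TMM (all called genes 62.6% and 53.7%), and from after first flush to second flush 5.0% and 15.2% (30.9% and 50.8%). After second flush they were 100% and 83.3% (69.6% and 64.6%), and after second flush against spawning 89.3% and 76.1% (71.1% and 53.6%). Of the 116 tested members with a strong match 55 rose and 11 fell at first flush (47.4% and 9.48%). Among the 29 weak matches 8 rose and 10 fell (27.6% and 34.5%), beside 25.1% and 23.6% of all tested genes.

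**Figure D2:**
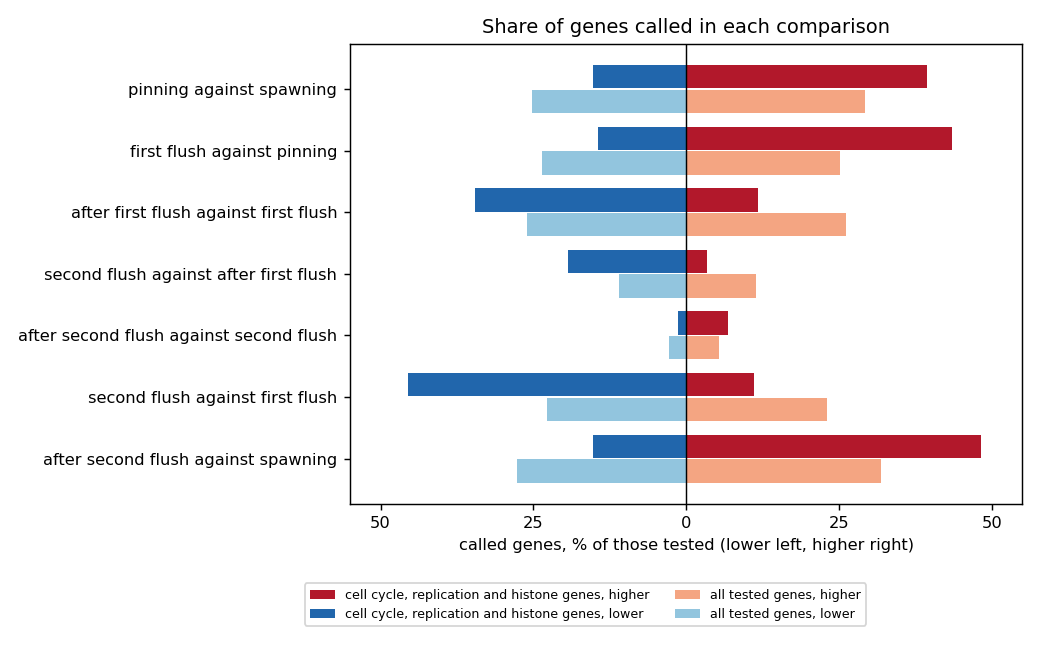
Percent of the 145 tested members and of the 8814 tested genes called higher or lower (edgeR adjusted p under 0.05) in each of 7 comparisons of stages. At first flush against pinning, members called higher outnumber those called lower 63 to 21, while the shares over all genes, 25.1% and 23.6%, are nearly equal.

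Of the cyclin-dependent kinases (CDKs), which drive the cycle when bound to cyclins, genes 195370, 228596, 196486 and 62365 rose at pinning. Gene 195370, a kinase in the KEGG group of yeast CDC28, was at 21.9 and 16.8 RPKM in the spawning libraries and at 104 and 103 RPKM at pinning. The 8 later libraries lay between 92.5 and 135 RPKM, so every later library stood above both spawning libraries and the stages after pinning overlapped. The rise was 4.89-fold (log2 2.29 ± 0.13, edgeR adjusted p = 6.2e-07). Another kinase of that group, gene 228596, went from 11.7 and 9.03 RPKM at spawning to 66.0 and 77.7 at pinning, 35.9 and 32.6 at first flush, and 79.4 and 80.8 after first flush. Its values were 67.6 and 84.2 RPKM at second flush and 62.1 and 70.1 after it. It rose 6.32-fold at pinning (log2 2.66 ± 0.19, edgeR adjusted p = 1.5e-06). It then fell at first flush by 1.29 ± 0.17 and rose by 1.20 ± 0.17 after it (adjusted p = 0.00011 and 0.00014), where gene 195370 did not pass the test in either step (log2 -0.16 and 0.10). The first flush libraries of gene 228596 overlapped with no library of the stages before or after.

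The other kinases showed smaller steps. Gene 196486, a further kinase of the CDK family, was at 8.89 and 8.69 RPKM at spawning and between 16.5 and 22.8 RPKM in all later libraries, a rise at pinning of 0.91 ± 0.15 (edgeR adjusted p = 0.00042). Gene 62365, annotated as CDC2-like, rose by 0.76 ± 0.14 at pinning and by 0.45 ± 0.13 at first flush, from 9.85 RPKM at spawning to 29.3 RPKM at first flush. The call at first flush was lost without pinning replicate 1 or first flush replicate 1. CDK7, which phosphorylates other CDKs and RNA polymerase II, had no call over the stages (gene 223023, stage means 36.6 to 55.6 RPKM, edgeR adjusted p = 0.15). The transcription kinase CDK8/11 (gene 212134) was at 42.6 and 28.6 RPKM after first flush, above the 19.7 and 17.8 RPKM of first flush, a rise of 0.90 ± 0.22 that was lost without after first flush replicate 1. Its companion in the Mediator complex, cyclin C, and cyclin H, the partner of CDK7, act mainly in transcription. Cyclin H (gene 140419) rose 2.85-fold at pinning, from 7.52 and 5.83 to 20.3 and 21.4 RPKM (log2 1.51 ± 0.17, edgeR adjusted p = 2.3e-05).

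Mitotic cyclins, which activate the CDK for entry into mitosis, divided into abundant genes with little movement and scarce genes with a first flush peak. Gene 43280 had the highest level, with libraries from 168 to 288 RPKM and no call over the stages (edgeR adjusted p = 0.12), and gene 194588 lay between 58.3 and 103 RPKM, also without a call (adjusted p = 0.13). Gene 134807 was at 10.5 and 10.5 RPKM at spawning, 12.9 and 19.7 at pinning, 49.6 and 34.3 at first flush, 21.4 and 24.5 after it, 12.1 and 9.76 at second flush and 22.3 and 19.8 after that. Its first flush libraries were above all others. It rose 2.20-fold at first flush (log2 1.14 ± 0.21, edgeR adjusted p = 0.00097), and second flush was 3.58-fold below first flush (log2 -1.84 ± 0.21, adjusted p = 4.5e-05). Gene 226035 followed with 11.2 and 20.4 RPKM at first flush against 3.58 to 6.85 RPKM in the other 10 libraries, a rise of 1.74 ± 0.32 (adjusted p = 0.0011). The libraries of both genes at first flush were thus separate from every other stage, while those of gene 43280 overlapped between stages.

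The G1/S cyclins named by KEGG as PLC1 and PLC2 belong to a family that partners the Pho85 kinase in yeast. The member with the highest mean level was gene 69512, named PLC1 by a weak match. Its libraries were at 615 and 571 RPKM at spawning, 1501 and 1647 at pinning, 764 and 822 at first flush and 2322 and 2077 after it, then 2079 and 1522, and 2031 and 1786. Spawning and first flush were low and did not overlap with any other stage. The rise at pinning was 2.42-fold, the fall at first flush 2.32-fold and the rise after it 2.72-fold (log2 1.28 ± 0.15, -1.21 ± 0.15 and 1.44 ± 0.15, edgeR adjusted p = 2.8e-05, 6.7e-05 and 1.6e-05). The strong match to PLC1, gene 202115, was at 4.23 and 19.998 RPKM at first flush and at 1.01 to 2.74 RPKM elsewhere. Its call at first flush (log2 2.49 ± 0.67, adjusted p = 0.012) was lost without either pinning library, without first flush replicate 2 and in a fit of the 2 stages alone, so it rested mainly on 1 library. The PLC2 match, gene 190198, had replicates as far apart as 69.6 and 227 RPKM at first flush and no call (edgeR adjusted p = 0.27 over the stages). As a class, 8 of the 15 cyclins and CDKs rose at pinning and 0 fell (background 29.3% and 25.2%). At first flush 4 rose and 4 fell, where the shares are near the 25.1% and 23.6% of all tested genes.

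**Figure D3:**
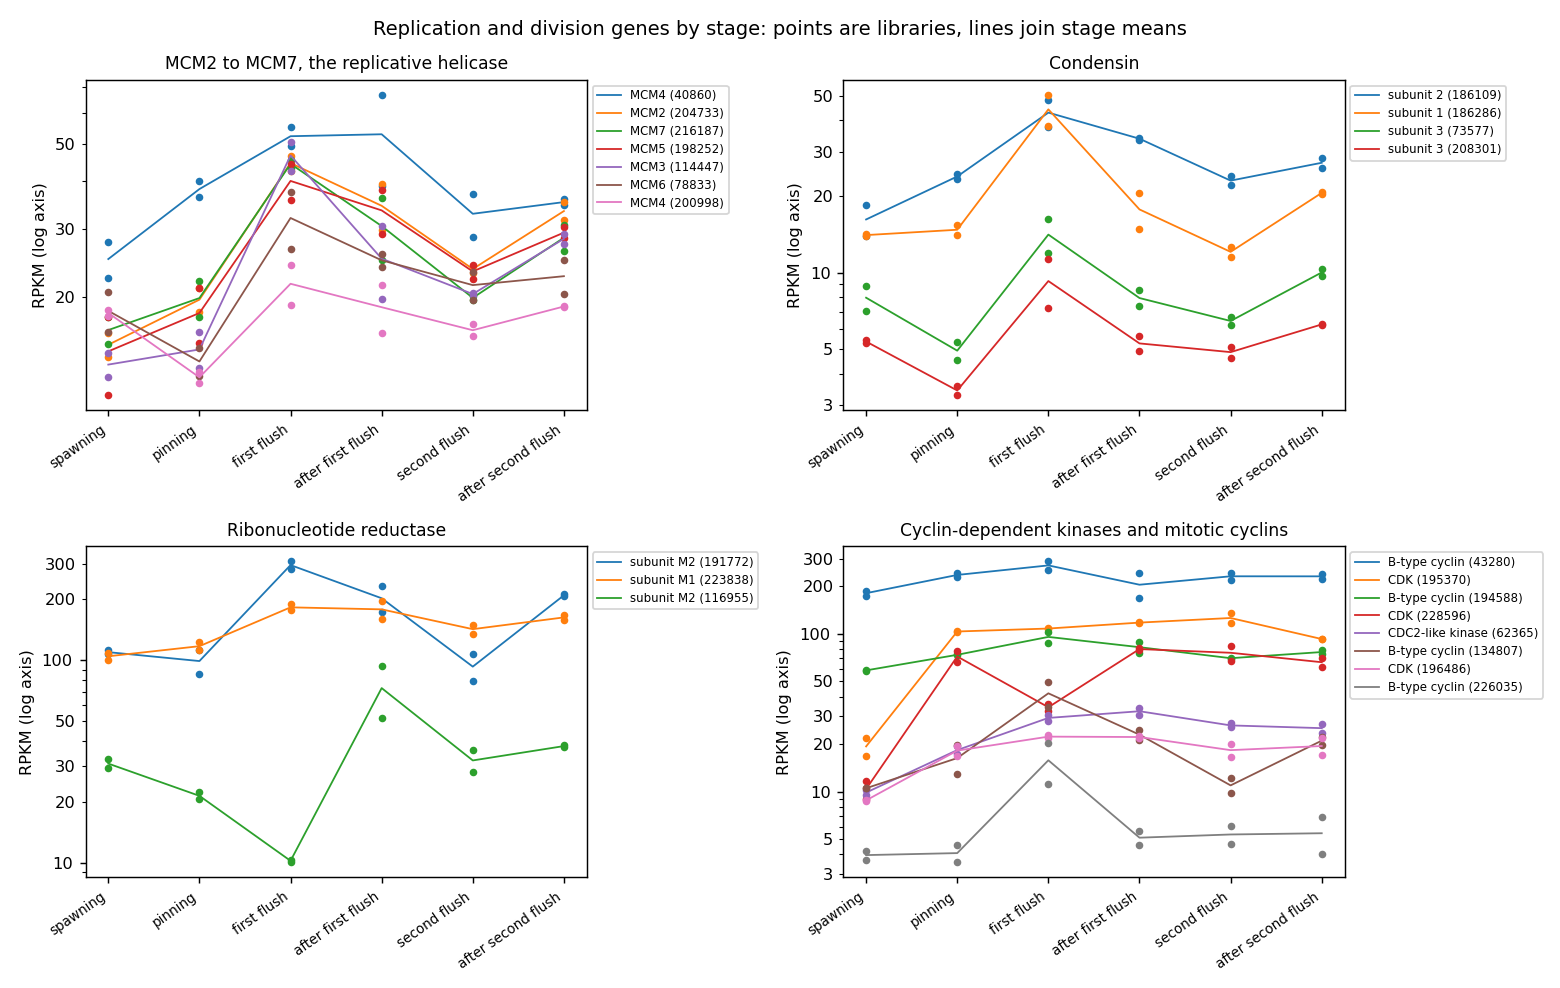
RPKM (log axis) of 4 gene groups over the 6 stages, with points for libraries and lines through stage means: MCM 2 to 7, condensin, ribonucleotide reductase, and CDKs with mitotic cyclins. Gene 195370 stays near 100 RPKM after its step at pinning, and gene 116955 is lowest at first flush, at 10.1 and 10.4 RPKM, where gene 191772 is highest.

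Of the 16 genes that license and fire origins, 11 rose and 2 fell at first flush (median log2 0.83), against 4 and 2 at pinning, 0 and 5 after first flush, and 1 and 9 at second flush against first flush. Over all tested genes the shares were 25.1% and 23.6% at first flush, 29.3% and 25.2% at pinning, and 26.1% and 26.0% after first flush. They were 23.0% and 22.7% for second against first flush. The MCM ring is the core of the replicative helicase, and 7 genes carry the names of its subunits, MCM4 having 2. MCM3 (gene 114447) was at 14.3 and 12.3 RPKM at spawning, 13.0 and 16.2 at pinning, 50.6 and 42.6 at first flush, 19.7 and 30.5 after it, 20.4 and 20.3 at second flush and 27.4 and 29.1 at the end. Both first flush libraries were above every other library. It rose 2.73-fold at first flush (log2 1.45 ± 0.19, edgeR adjusted p = 0.00013) and did not pass the test at pinning (log2 0.00 ± 0.20).

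MCM2, MCM5, MCM6 and MCM7 also had their highest stage mean at first flush, with smaller steps. From pinning to first flush the mean of MCM2 (gene 204733) went from 19.7 to 44.5 RPKM, of MCM5 (gene 198252) from 18.2 to 40.0, of MCM6 (gene 78833) from 13.6 to 32.0, and of MCM7 (gene 216187) from 19.8 to 44.3. Their log2 rises were 0.95 ± 0.15, 0.91 ± 0.22, 1.01 ± 0.19 and 0.93 ± 0.17, all called, with MCM5 lost without pinning replicate 1 or first flush replicate 1. Of the MCM4 genes, gene 200998 rose by 0.58 ± 0.16 (edgeR adjusted p = 0.010), a call lost without pinning replicate 2 or first flush replicate 1. The second, gene 40860, had 55.3 and 49.2 RPKM at first flush beside 66.9 and 38.8 after it and no call in any of the 7 comparisons. Summed over the 7 genes, MCM levels were 109 and 133 RPKM at spawning and 259 and 304 at first flush, with second flush at 156 and 159. None of the 7 rose at pinning, and MCM6 and gene 200998 fell there, by 0.57 ± 0.20 and 0.69 ± 0.16. The fall of MCM6 was lost on the RPKM scale and without spawning replicate 1 or either pinning library.

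The origin recognition complex, which marks origins and loads the MCM ring with CDC6, moved less uniformly. ORC1 (gene 199321) was at 2.39 and 2.76 RPKM at pinning and 8.76 and 7.17 at first flush, a 2.65-fold rise (log2 1.40 ± 0.21, edgeR adjusted p = 0.00026), and ORC4 (gene 177922) went from 6.65 and 8.68 to 20.2 and 18.4 RPKM (log2 1.11 ± 0.19). ORC5 (gene 210859) had its step earlier, from 13.7 and 14.3 RPKM at spawning to 35.4 and 36.6 at pinning (log2 1.23 ± 0.14, adjusted p = 3.0e-05), and its later libraries stayed between 29.3 and 37.5 RPKM. ORC2 (gene 74579) fell by 0.53 ± 0.17 at first flush, a call that was lost on the RPKM scale, and ORC3 (gene 58460) had no call over the stages (adjusted p = 0.49). CDC6 (gene 212703) was at 9.38 and 8.18 RPKM at spawning, 13.7 and 19.9999 at pinning, 38.7 and 29.7 at first flush and 35.1 and 41.7 after it. Its rises were 0.81 ± 0.19, lost without pinning replicate 2, and 0.79 ± 0.18. Its fall to second flush, at 18.3 and 17.0 RPKM, was 1.99-fold (log2 -0.995 ± 0.18, edgeR adjusted p = 0.0044). The kinase CDC7, which fires licensed origins, rose at first flush by 0.86 ± 0.18 (gene 188660, 7.95 to 16.8 RPKM). CDC45, a partner of the MCM helicase, rose at pinning by 0.74 ± 0.16 and fell at first flush by 0.50 ± 0.16 (gene 199684, 15.1, 27.6 and 22.8 RPKM), the fall being lost on the RPKM scale.

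At the replication fork 11 of 25 genes rose and 0 fell at pinning (background 29.3% and 25.2%). At first flush 11 rose and 1 fell (background 25.1% and 23.6%). PCNA, the sliding clamp that holds polymerases on DNA (gene 196191), was at 60.8 and 53.2 RPKM at spawning, 137 and 128 at pinning, 191 and 198 at first flush, 142 and 149 after it, 81.4 and 78.2 at second flush and 124 and 131 at the end. Spawning, second flush and first flush overlapped with no other stage. It rose by 1.09 ± 0.12 at pinning (edgeR adjusted p = 2.0e-05) and was 2.27-fold lower at second flush than at first flush (log2 -1.19 ± 0.12, adjusted p = 1.4e-05). Its smaller rise at first flush (log2 0.33 ± 0.11, adjusted p = 0.034) was lost when any 1 library of pinning or first flush was left out.

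The polymerases and the single-strand binding protein added to this. The catalytic subunit of polymerase alpha, which starts new strands with primase, was at 13.0 and 14.0 RPKM at pinning and 44.0 and 34.2 at first flush (gene 119036, log2 1.31 ± 0.15, edgeR adjusted p = 6.0e-05), its libraries at first flush being above all others. The small subunit 4 of polymerase delta, gene 136660, was at 31.7 and 34.0 RPKM at first flush and at 8.79 and 6.88 at second flush, a 3.91-fold difference (log2 -1.97 ± 0.20, adjusted p = 1.6e-05). The epsilon subunit 3 match (gene 122350), of weak match, ran the other way at first flush, with stage means of 133 and 111 RPKM and a fall of 0.49 ± 0.13 that was lost on the RPKM scale.

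Replication protein A coats single-stranded DNA. A pair of neighbouring genes carried the name of its middle subunit, A2. Gene 190434, the strong match, was at 21.6 and 19.1 RPKM at spawning and 55.4 and 48.0 at pinning (log2 1.21 ± 0.18, edgeR adjusted p = 0.00017). Gene 190435, a weak match, was at 1.36 and 2.10 RPKM at spawning, 6.75 and 8.68 at pinning, 31.4 and 24.7 at first flush and 10.6 and 11.1 after it, the widest range among the members, 12.6-fold between stages. It rose 4.02-fold and then 3.11-fold (log2 2.01 ± 0.34 and 1.64 ± 0.24, adjusted p = 0.00045 and 0.00026). Replication factor C, which loads the clamp, had 2 of 5 genes rising at first flush and 0 falling (background 25.1% and 23.6%).

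Ribonucleotide reductase is built from a large M1 subunit and a small M2 subunit that carries the radical, and it is the step that makes deoxynucleotides. The M1 gene 223838 had stage means of 105, 117, 183, 178, 143 and 163 RPKM and rose at first flush by 0.41 ± 0.14 (edgeR adjusted p = 0.030), a call lost when any 1 library of the 2 stages was left out. A pair of neighbouring genes encoded M2, and they went opposite ways into and out of first flush. From after first flush to second flush both fell (log2 -0.99 ± 0.20 for gene 191772 and -1.06 ± 0.23 for gene 116955), calls lost in a fit of the 2 stages alone and, for gene 116955, without second flush replicate 2. Gene 191772 was at 112 and 108 RPKM at spawning, 85.5 and 113 at pinning, 308 and 283 at first flush, 173 and 232 after it, 79.3 and 107 at second flush and 207 and 212 after that. First flush stood above all other libraries, and second flush lay with spawning and pinning. Its rise at first flush was 2.55-fold (log2 1.35 ± 0.20, adjusted p = 0.00024).

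Gene 116955, the second M2 gene, was at 29.3 and 32.6 RPKM at spawning, 20.6 and 22.3 at pinning, 10.1 and 10.4 at first flush, 94.2 and 51.8 after it, 36.1 and 28.1 at second flush and 37.3 and 38.2 at the end. It was lowest at first flush and highest just after, without overlap with the other stages in either. It fell by 1.29 ± 0.25 at first flush and then rose 6.96-fold (log2 2.80 ± 0.25, edgeR adjusted p = 0.0016 and 8.0e-06), although its 2 libraries after first flush were 94.2 and 51.8 RPKM. The level of gene 191772 was 3.56 ± 0.37 (SD, n = 2) times that of gene 116955 at spawning, 4.60 ± 0.64 at pinning, 28.8 ± 2.2 at first flush, 3.16 ± 1.9 after it, 3.003 ± 1.1 at second flush and 5.54 ± 0.0058 after second flush. Pearson's r between the 2 genes over 12 libraries, on TMM-scaled log2 counts, was -0.36, and that of gene 191772 with M1 was 0.80. These points share libraries, stages and depth.

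Histones had the highest summed RPKM of the role classes, and more of them rose at pinning than at any other step. Of 15 tested histone genes 10 rose and 0 fell at pinning (median log2 0.59), 6 rose and 2 fell at first flush (0.17), 1 rose and 8 fell after it, 1 rose and 9 fell on to second flush (-0.48), and 5 rose and 0 fell after second flush. Background shares at these steps were 29.3% and 25.2%, 25.1% and 23.6%, 26.1% and 26.0%, 11.3% and 11.0%, and 5.29% and 2.89%. Summed over the class, levels were 2846 and 2947 RPKM at spawning, 4248 and 4509 at pinning, 4759 and 5351 at first flush, 4227 and 4318 after it, 3077 and 3092 at second flush and 3489 and 3595 at the end. Second flush was thus close to spawning and no library of either overlapped with pinning or first flush.

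Linker histone H1, which binds between nucleosomes, had the member with the lowest p over the stages. Gene 216965 was at 32.1 and 27.9 RPKM at spawning, 62.4 and 61.8 at pinning, 135 and 133 at first flush, 38.5 and 43.6 after it, 26.4 and 25.5 at second flush and 40.1 and 45.3 at the end. First flush was the highest stage and pinning the next, both apart from all others. Over the stages its edgeR adjusted p was 8.6e-07. It rose by 0.92 ± 0.14 and 0.89 ± 0.13 at the first 2 steps, fell 3.33-fold after first flush (log2 -1.74 ± 0.14, adjusted p = 3.1e-06), and was 4.83-fold lower at second than at first flush (log2 -2.27 ± 0.14, adjusted p = 5.6e-07).

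Both other H1 genes also fell after first flush. Gene 190708 was at 47.0 and 46.3 RPKM at spawning, 108 and 96.3 at pinning, 104 and 109.5 at first flush, 39.4 and 27.3 after it, 44.3 and 41.7 at second flush and 33.3 and 31.6 at the end. Pinning and first flush overlapped and stood above all other stages. It rose 2.003-fold at pinning and fell 3.27-fold after first flush (log2 1.002 ± 0.15 and -1.71 ± 0.15, edgeR adjusted p = 0.00020 and 7.6e-06). Gene 115548 was at 107 and 129 RPKM at pinning and 239 and 236 at first flush (log2 0.79 ± 0.14, adjusted p = 0.00084), then fell by 0.97 ± 0.14 to 110.2 and 138 RPKM. Summed H1 was 165 ± 0.43 RPKM (SD, n = 2) at spawning, 282 ± 6.6 at pinning, 479 ± 0.015 at first flush, 198 ± 15 after it, 150.5 ± 10 at second flush and 200.1 ± 8.5 at the end.

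Histones H3 and H4 form the tetramer at the centre of the nucleosome, and their copies went different ways. The H3 gene 139997, the most abundant, was at 792 and 798 RPKM at spawning, 853 and 859 at pinning, 628 and 791 at first flush, 1011 and 777 after it, 739.9 and 730.3 at second flush and 691 and 613 at the end. Its stages overlapped, and the only consecutive step called was a fall of 0.49 ± 0.15 at first flush (edgeR adjusted p = 0.020) that was lost on the RPKM scale and without 3 of the 4 libraries. Gene 136889 was at 49.4 and 41.6 RPKM at spawning, 84.1 and 133 at pinning, 253 and 289 at first flush, 128 and 207 after it, 77.3 and 63.5 at second flush and 155 and 154 at the end. First flush was above all other stages. It rose by 1.12 ± 0.26 and then by 1.10 ± 0.24 (adjusted p = 0.0038 and 0.0036).

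Gene 136959, the other H3 copy, was at 156 and 227 RPKM at pinning, 370.1 and 443 at first flush and 99.3 and 96.1 at second flush, 3.89-fold lower than first flush (log2 -1.96 ± 0.20, edgeR adjusted p = 1.7e-05). The share of H3 RPKM held by gene 139997 was therefore 82.6% ± 0.18 (SD, n = 2) at spawning, 74.3% ± 5.3 at pinning, 51.1% ± 1.2 at first flush, 69.9% ± 9.7 after it, 81.4% ± 0.94 at second flush and 65.5% ± 1.6 at the end. Copies of H3 are alike in sequence, so counts of uniquely placed reads leave the level of each copy uncertain.

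The H4 gene 139588 had the largest fall of any member at first flush. Its libraries were at 218 and 228 RPKM at spawning, 568 and 537 at pinning, 222 and 224 at first flush, 345 and 306 after it, 381 and 327 at second flush and 335 and 298 at the end. Pinning was the highest stage, and spawning and first flush overlapped below all others. It rose 2.26-fold and then fell 2.89-fold (log2 1.17 ± 0.11 and -1.53 ± 0.11, edgeR adjusted p = 9.8e-06 and 3.2e-06). Gene 136892 also rose at pinning, from 52.0 and 50.9 to 121 and 134 RPKM (log2 1.18 ± 0.13), and stayed at 131 and 153 RPKM at first flush. Gene 193423 was at 265 and 251 RPKM at spawning and 405 and 489.6 at first flush, with no call at either step. The share of H4 RPKM held by gene 139588 was 55.2% ± 1.6 at pinning and 27.6% ± 2.4 at first flush. This gene is annotated at 285 bases, against 494 and 500 bases for the others, so its RPKM rests on a shorter stretch.

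**Figure D4:**
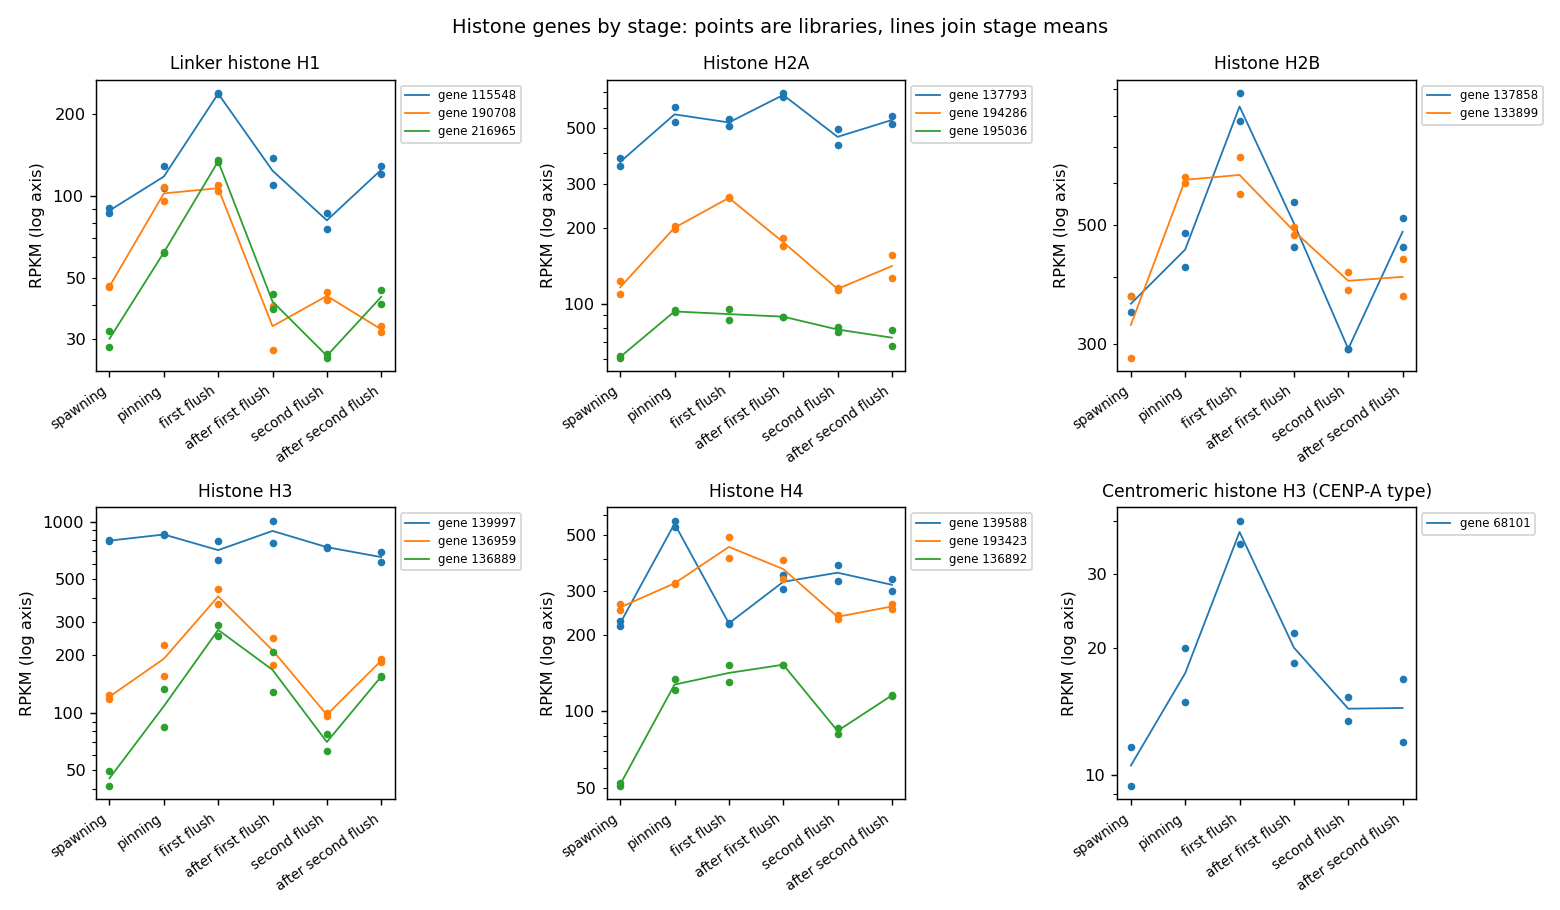
RPKM (log axis) of the tested histone genes over the 6 stages in 6 panels by histone type, with points for libraries and lines through stage means. H3 gene 139997 stays between 613 and 1011 RPKM while the other H3 genes peak at first flush, and H4 gene 139588 peaks at pinning with 568 and 537 RPKM.

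H2A and H2B form the dimers at the faces of the nucleosome. H2A gene 137793 had libraries at 355 and 379 RPKM at spawning, 529 and 607 at pinning, 513 and 542 at first flush and 691 and 666 after it, with the highest values after first flush. It rose at pinning by 0.50 ± 0.14, lost without spawning replicate 1 or pinning replicate 2. Genes 194286 and 195036, also H2A, rose there by 0.66 ± 0.13 and 0.47 ± 0.13 (edgeR adjusted p = 0.0015 and 0.0082). H2B gene 133899 rose at pinning by 0.77 ± 0.16, from 368 and 282 to 617 and 600.1 RPKM, and did not pass the test at first flush. The second H2B gene, 137858, was at 417 and 484 RPKM at pinning and 785 and 885 at first flush (log2 0.67 ± 0.15, adjusted p = 0.0030), then at 293 and 293 RPKM at second flush (log2 -1.41 ± 0.15 against first flush, adjusted p = 2.3e-05). CENP-A, the H3 variant that marks centromeres (gene 68101), was at 14.8 and 20.0004 RPKM at pinning and 40.1 and 35.3 at first flush, a rise of 0.89 ± 0.24 lost without pinning replicate 1 or first flush replicate 1.

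The courses of histone genes over the libraries were compared in pairs. In the RefSeq table of the H97 genome (Agabi_varbisH97_2), H3 gene 136889 is next to H4 gene 136892, H3 gene 136959 to H4 gene 193423, and H2A gene 194286 to H2B gene 137858. Pearson's r of the pairs over 12 libraries was 0.82, 0.78 and 0.85. It was taken on log2 read counts scaled to library size with TMM (prior count 1), and not on RPKM. The most abundant H3 gene, 139997, and the H4 gene 139588 are in none of these pairs, and r of gene 139997 with the other H3 genes was -0.58 and -0.26. The H3 genes 136889 and 136959, which are not neighbours, had an r of 0.86, so values as high as those of the neighbours were also found between genes that lie apart. In all, 10 pairs of members were neighbours, and r ranged from -0.46 for CDC20 gene 195164 with its neighbour 195165 to 0.90 for the replication factor A2 pair. These are descriptions over libraries that share stages and depth, and reads of overlapping neighbours cannot be told apart.

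Condensin, which compacts chromosomes for mitosis, rose at first flush with all 4 of its genes (background 25.1%). Their median of 1.25 (log2) was the largest among the complexes counted. Condensin subunit 1 (gene 186286) was at 14.2 and 13.9 RPKM at spawning, 14.1 and 15.5 at pinning, 50.4 and 37.9 at first flush, 14.9 and 20.6 after it, 12.6 and 11.6 at second flush and 20.5 and 20.8 at the end. The first flush libraries were above every other library. It rose 2.55-fold and fell 2.52-fold (log2 1.35 ± 0.16 and -1.34 ± 0.16, edgeR adjusted p = 7.4e-05 and 6.1e-05). The subunit 3 genes 73577 and 208301 fell at pinning (log2 -0.82 ± 0.19 and -0.77 ± 0.21) before rising by 1.29 ± 0.18 and 1.21 ± 0.20. Subunit 2 (gene 186109) rose by 0.61 ± 0.15 at first flush, lost without pinning replicate 1 or first flush replicate 1. Of the cohesin genes, which hold sister chromatids together, SCC1 (gene 192574) had no call over the stages (stage means 41.1 to 63.7 RPKM, adjusted p = 0.075). The loader SCC2 (gene 223689) lay between 14.5 and 21.2 RPKM, and subunit SA-1/2 (gene 121237) rose at first flush from 8.28 and 7.97 to 25.3 and 20.9 RPKM (log2 1.28 ± 0.15, adjusted p = 6.7e-05).

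The kinetochore joins chromosomes to spindle microtubules, and 6 of its 9 genes rose and 0 fell at first flush (background 25.1% and 23.6%). Spc25 (gene 194960) was at 11.3 and 12.04 RPKM at spawning, 37.0 and 41.9 at pinning, 77.8 and 78.8 at first flush, 53.2 and 55.2 after it, 37.6 and 32.2 at second flush and 52.1 and 43.5 at the end. Spawning was lowest and first flush highest, both apart from the rest. It rose 3.08-fold and then 1.70-fold (log2 1.62 ± 0.15 and 0.76 ± 0.13, edgeR adjusted p = 6.4e-06 and 0.00069). Its partners in the NDC80 complex rose too, Nuf2 (gene 176733) by 0.82 ± 0.14 and 0.66 ± 0.13, and NDC80 itself (gene 216992) at first flush only among these steps, by 1.30 ± 0.20, from 6.36 and 8.18 to 23.7 and 18.2 RPKM. The rise of Spc24 (gene 190757) at pinning was 1.08 ± 0.15, and its small rise at first flush (log2 0.35 ± 0.13, adjusted p = 0.047) was lost when any 1 library of the 2 stages was left out. ZW10 (gene 178847), which also serves vesicle traffic, fell at pinning by 0.61 ± 0.13 and rose after first flush by 0.57 ± 0.13.

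Of 15 anaphase genes, 9 rose and 2 fell at first flush (median log2 0.61), and 1 rose and 7 fell after it. Background shares were 25.1% and 23.6% at first flush, and 26.1% and 26.0% after it. Subunit 6 of the anaphase-promoting complex (gene 218050), a ubiquitin ligase for cyclins and securin, was at 6.88 and 4.55 RPKM at spawning, 8.37 and 9.36 at pinning, 26.1 and 26.2 at first flush, 10.3 and 11.8 after it, 9.04 and 7.56 at second flush and 11.6 and 10.5 at the end. First flush was alone at the top, and it rose 2.53-fold (log2 1.34 ± 0.17, edgeR adjusted p = 0.00011). Subunit 5 (gene 183241), with the highest level of its class, had libraries of 18.0 to 36.3 RPKM and no call at first flush. Subunit 10 (gene 116179) went the other way, at 15.5 and 18.1 RPKM at first flush and 31.8 and 34.6 after it (log2 0.95 ± 0.17, adjusted p = 0.00071).

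CDC20 activates the anaphase-promoting complex at mitosis, and 3 genes carried its name. Gene 195164 was at 4.21 and 4.69 RPKM at spawning, 7.66 and 7.64 at pinning, 23.9 and 19.8 at first flush, 9.82 and 9.88 after it, 6.38 and 3.67 at second flush and 7.93 and 7.03 at the end. First flush was above all other libraries, and second flush was 4.07-fold lower (log2 -2.03 ± 0.21, edgeR adjusted p = 2.1e-05). Gene 76730 was at 34.4 and 30.8 RPKM at first flush and 10.9 to 17.3 RPKM elsewhere, rising by 0.82 ± 0.17 and falling 2.94-fold after it (log2 -1.56 ± 0.17, adjusted p = 3.0e-05). Gene 227285 lay between 11.8 and 22.1 RPKM with no call at first flush. The CDC20-like activator (gene 195165), the relative that acts late in mitosis and in G1, stayed between 19.9 and 26.3 RPKM. It had a fall of 0.45 ± 0.13 at first flush that was lost on the RPKM scale.

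**Figure D5:**
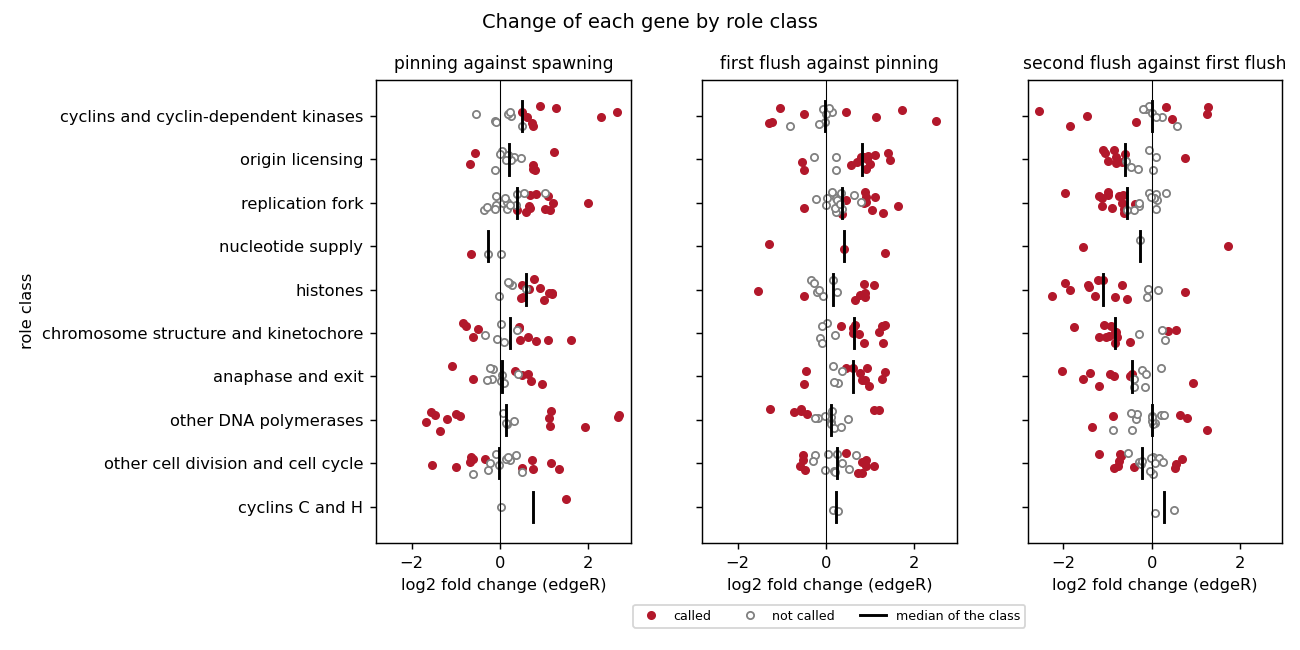
Log2 changes (TMM-scaled edgeR fit) of each tested member by role in 3 comparisons, pinning against spawning, first flush against pinning, and second flush against first flush; filled points are called and black bars are class medians. At first flush the medians are 0.83 for origin licensing, 0.64 for chromosome structure and kinetochore, 0.61 for anaphase and exit, 0.17 for histones and -0.02 for cyclins and CDKs.

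Polymerases outside the replication fork and the remaining genes named for cell division or the cell cycle were mixed. Of 17 tested repair and other polymerases 6 rose and 7 fell at pinning (background 29.3% and 25.2%). At first flush 2 rose and 5 fell (background 25.1% and 23.6%). Gene 189248, of the polymerase sigma type, which in yeast is a poly(A) polymerase, was at 3.10 and 1.97 RPKM at spawning and 18.6 and 17.3 at pinning, with all later libraries between 10.5 and 25.5 RPKM. It rose 6.45-fold (log2 2.69 ± 0.22, edgeR adjusted p = 3.2e-06). Polymerase IV gene 227537 went from 9.30 and 10.2 RPKM at first flush to 30.1 and 20.9 after it and 6.04 and 7.13 at second flush, the highest values of its 12 libraries being those after first flush (log2 1.36 ± 0.22, then -1.82 ± 0.22, adjusted p = 0.00034 and 0.00086).

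The mitochondrial polymerase gamma (gene 114559) fell at pinning from 19.4 and 19.2 to 8.11 and 8.42 RPKM (log2 -1.36 ± 0.14, edgeR adjusted p = 1.3e-05) and stayed below spawning in every later library. Polymerase phi (gene 200173), which in yeast acts on ribosomal DNA transcription, fell there by 1.20 ± 0.14, from 43.8 and 38.4 to 20.9 and 18.3 RPKM. Among genes of the polymerase eta name, which copies damaged DNA, gene 184029 fell at pinning from 7.16 and 7.93 to 2.53 and 3.09 RPKM (log2 -1.56 ± 0.25). The weak match 115898 fell from 27.5 and 24.6 to 9.67 and 10.9 (log2 -1.47 ± 0.18). The weak matches 191014 and 115845, which are neighbours, rose there by 1.12 ± 0.17 and 2.71 ± 0.58, the latter from 0.902 and 0.252 RPKM, so its fold is uncertain. Weak match 115848 was at 12.6 and 11.1 RPKM at pinning, 5.33 and 6.16 at first flush and 13.2 and 14.2 after it (log2 -1.26 ± 0.22 and 1.23 ± 0.22). Weak sigma match 210004 fell at pinning by 1.68 ± 0.36, and its first flush libraries, 14.1 and 6.61 RPKM, were over 2-fold apart.

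Of the 21 other division genes 5 rose and 6 fell at pinning, and these shares are near the 29.3% and 25.2% of all tested genes. At first flush 7 rose and 4 fell (background 25.1% and 23.6%). Most genes named after yeast CDC24 were weak matches, of which gene 185603 fell at pinning by 1.54 ± 0.16 and gene 205914 by 1.002 ± 0.14, and the strong match, gene 188941, fell at first flush by 0.51 ± 0.12. CDC37, a co-chaperone of Hsp90 for kinases (gene 206983), was at 43.7 and 38.4 RPKM at spawning, 109 and 92.7 at pinning, then 158 and 166 at first flush, with a rise of 1.17 ± 0.16 at pinning (adjusted p = 9.7e-05). A checkpoint gene with an exonuclease number (gene 186480) went from 1.57 and 2.13 RPKM at spawning to 9.49 and 10.9 at the end, 4.43-fold higher (log2 2.15 ± 0.32, adjusted p = 0.00015). The spindle checkpoint gene BUB3 (gene 194378) was at 64.6 to 106 RPKM and had no call at pinning or first flush.

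The step after a flush differed between the flushes. A test of the difference between the step after first flush and the step after second flush called 57 members (39.3%), against 39.4% of all tested genes, so the difference was as frequent among members as elsewhere. After second flush 5 histones rose, H3 genes 136889 (log2 1.09 ± 0.25) and 136959 (0.89 ± 0.19), H1 genes 216965 (0.67 ± 0.14) and 115548 (0.57 ± 0.14) and H2B gene 137858 (0.68 ± 0.15), with edgeR adjusted p from 0.015 to 0.030. All 5 had been called lower after first flush, and all 5 rises were lost when either second flush library or after second flush replicate 2 was left out. The M2 gene 191772 rose from 79.3 and 107 to 207 and 212 RPKM, 2.17-fold (log2 1.12 ± 0.20, adjusted p = 0.0066), and was the only call of this step that held in every alternative. PCNA rose by 0.63 ± 0.12 (adjusted p = 0.0082), lost without second flush replicate 1. The 2 falls were CDK gene 195370 (log2 -0.49 ± 0.12) and BUB3 (-0.44 ± 0.12), and neither held on the RPKM scale.

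The falls on the way to second flush were led by polymerase IV gene 227537 and, with log2 changes of -1.23 ± 0.25, -1.13 ± 0.25, -1.13 ± 0.27 and -1.06 ± 0.23, by subunit 11 of the anaphase-promoting complex (gene 61116), H3 gene 136889, checkpoint gene 186480 and M2 gene 116955. The 5 rises were polymerase phi (0.76 ± 0.14), CDC24 matches 188941 (0.57 ± 0.12) and 205914 (0.48 ± 0.14), H1 gene 190708 (0.50 ± 0.15) and SCC2 (0.49 ± 0.14). In a fit of the 2 stages alone 1 member was called lower and 0 higher. Counts over all tested genes in that fit are not given here, so the drop cannot be read as particular to the members.

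Other genes of the same pathways were counted from lists that do not overlap with the members. Of 30 further mitosis genes (kinesins, spindle and checkpoint proteins) 17 rose and 3 fell at first flush (median log2 0.76), and 1 rose and 19 fell after it. Of 35 further replication genes 13 rose and 6 fell at first flush, with a median of 0.12, and of 67 tested repair genes 30 rose and 6 fell (median 0.44). At pinning these lists gave 10 and 4, 14 and 8, and 13 and 18. Over all tested genes the shares rising and falling were 29.3% and 25.2% at pinning, 25.1% and 23.6% at first flush, and 26.1% and 26.0% after it. Of 90 ribosomal protein genes 75 rose and 3 fell at pinning (median log2 1.28), and 13 rose and 14 fell at first flush.

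Markers of other states were also counted. The shares of all tested genes that rose and fell were 25.1% and 23.6% at first flush, and 26.1% and 26.0% after it. A list of 18 genes meant as markers of mushroom tissue was picked by family name (tyrosinases, lectins, aegerolysins and hydrophobins). Of these 16 were tested, and 3 rose and 4 fell at first flush. The list summed to 36809 and 38048 RPKM at spawning, 52992 and 54935 at pinning, 27469 and 32794 at first flush and 5495 and 6954 after second flush, with 1 gene at 0 in 10 of the libraries. Both spawning libraries lay above both first flush libraries, so a high sum of this list does not mark mushroom tissue in these samples. Of 18 markers of compost-degrading mycelium (laccases, manganese peroxidase, cellobiosidases and endoxylanases) 10 rose and 1 fell at first flush (median log2 1.49), 0 rose and 13 fell after it, and the sum was 28046 and 29188 RPKM at spawning, 2087 and 2429 at pinning, 10522 and 11415 at first flush and 478 and 1525 after it, with no gene at 0. The 6 genes listed under meiosis, which takes place in basidia, were picked by annotation text. They summed to 114 and 115 RPKM at spawning and to 123 RPKM in each first flush library. Of the 5 tested 1 rose at first flush. The recombination protein SPO11 (gene 212660) was at 0.431 and 0.526 RPKM at spawning and 0.0870 and 0.343 at first flush, near 0, and HOP1 (gene 183052) at 1.50 and 1.05, and 1.96 and 1.02. Most of the sum thus came from other genes of the list, and it is no measure of meiosis. The part of any of these in the changes of the members was not tested.

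Members of a complex shared their pattern over the 12 libraries to different degrees. Pearson's r between genes was taken on log2 read counts scaled to library size with TMM (prior count 1). Its median was 0.75 in condensin, 0.63 in MCM 2 to 7, 0.60 in the kinetochore and 0.49 among core histones. It was 0.44 in replication factor C, 0.39 in the anaphase-promoting complex and 0.38 among fork polymerases and primase. The median was 0.28 in the origin recognition complex and -0.10 in cohesin, against 0.21 over all pairs of members. The pairs share libraries, stages and depth. Within the kinetochore r ran from -0.77 to 0.96.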

How the data were processed

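RNA from mycelium-colonised compost of strain A15 was sequenced in 12 libraries, 2 for each of 6 stages. The authors deposited a table per library that lists for each gene its length, its annotation and a count of reads placed uniquely, per the file headers. The deposited RPKM is the count divided by gene length and by the library total. Aligner, genome build and strand setting: not given in the sources used here. A gene missing from a table was set to 0, because listed counts start at 1. Members and gene lists were chosen with earlier results of these data known. The split into strong and weak matches (E-value above 1e-20) was set after the annotation was seen. Gene numbers were matched to RefSeq locus tags of the H97 assembly Agabi_varbisH97_2 for 9440 of 9502 genes (99.3%) and 147 of 148 members, and this table served only to find neighbours. No sequences were used, and of the coordinates only the start positions of genes, in finding neighbours.

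Genes passing filterByExpr (minimum count 10, total 15; 8814 genes) were fitted with edgeR 4.0.16 in R 4.3.3, TMM scaling (factors 0.834 to 1.11) and a robust quasi-likelihood model with a term per stage, leaving 6 residual degrees of freedom. Comparisons were of consecutive stages, the 2 flushes, the last stage with the first, all stages together, and the step after first flush against the step after second flush. P-values were adjusted by Benjamini-Hochberg over all tested genes and called under 0.05, two-sided. Standard errors of log2 changes were computed as the absolute change divided by the square root of F. Lists are described by counts and medians with no test. The fit was checked on simulated counts with known changes planted in the first flush libraries, scored for first flush against pinning only.

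Members named with values were every tested histone, MCM and origin recognition gene, PCNA, ribonucleotide reductase, CDKs and cyclins of the cycle, the most abundant member of each role, the 5 largest called rises and falls of each comparison (at least 5 RPKM), the 5 lowest overall p-values and the 5 lowest for the after-flush difference. Others, such as single subunits of condensin, the kinetochore and replication factor A, were named after their values were seen. The most abundant member of the other division genes is not reported here. Alternatives were DESeq2 1.42.0 size factors and its test, limma 3.58.1 on log2 RPKM plus 1 or plus 0.1, no filter, a replicate block, a fit of the 2 stages alone, and leaving out each library. Samples with the same replicate number did not deviate together, so the numbers were not used to pair libraries.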

Additional observations from a re-analysis of the deposited data

Results flagged for a closer look

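The log2 change from second flush to after second flush differed from that after first flush for 57 of 145 members (39.3%), against 39.4% of all tested genes, by a test of the difference itself in the edgeR fit, with Benjamini-Hochberg adjustment over 8814 genes. The 5 members with the lowest p are given here. Linker histone H1 gene 216965 fell by 1.74 after first flush and rose by 0.67 after second flush, a difference of 2.41 ± 0.20 (SE, adjusted p = 6.6e-06). Condensin subunit 1 (gene 186286) fell by 1.34 and rose by 0.73, a difference of 2.06 ± 0.23 (edgeR adjusted p = 5.9e-05). H1 gene 115548 fell by 0.97 and rose by 0.57, a difference of 1.54 ± 0.20 (edgeR adjusted p = 0.00015). H2B gene 137858 fell by 0.76 and rose by 0.68, a difference of 1.44 ± 0.21 (edgeR adjusted p = 0.00030). The ribonucleotide reductase M2 gene 116955 rose by 2.80 after first flush and was at 0.19 ± 0.23 after second flush, a difference of -2.61 ± 0.34 (edgeR adjusted p = 0.00017). The rises after second flush of the first 4 genes were lost without either second flush library, and a batch of libraries, which no label names, could not be told apart from first flush.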

How the results depend on the processing

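Of 275 results for 71 named genes, 175 kept their call in all 19 alternatives and 0 reversed. Counts of members stayed within 1.5 times the value given, except as follows. On log2 RPKM, members lower at first flush than at pinning numbered 9 with either pseudocount (21 with TMM), those lower after second flush than at spawning 11 and 12 (22), those higher at second flush than after first flush 2 and 2 (5), and those lower after second flush than at second flush 0 and 0 (2). A fit of the 2 stages alone gave 0 higher and 1 lower at second flush against after first flush (5 and 28), and 0 lower after second flush (2), where no filter and the replicate block each gave 1. Matching counts over all tested genes are not given here.

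When 1 library was left out, members changing over the stages ranged from 113 to 130, those higher and lower from 42 to 58 and 16 to 23 at pinning, 43 to 66 and 11 to 22 at first flush, 14 to 18 and 35 to 53 after first flush, 1 to 9 and 12 to 27 from there to second flush, and 2 to 16 and 0 to 3 after second flush. For second against first flush they were 13 to 16 and 49 to 68, for after second flush against spawning 49 to 74 and 16 to 23, and for the after-flush difference 46 to 71. Rises from after first flush to second flush were 9 without after first flush replicate 2, 3 without second flush replicate 1 and 1 without its replicate 2. Rises after second flush were 16 without after first flush replicate 1. The lone library left in a stage is then assumed to vary like the others.

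Same-numbered libraries did not deviate together (r of deviations from stage means over 15 pairs of stages from -0.24 to 0.20, 1 over 0.1). The replicate block moved no other count by over 1.5 times, with 55 rises at pinning and 64 at first flush. With 2 libraries a stage, changes of members under 5 RPKM were the least certain.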
